A study of Homo sapiens with 24 samples.

Results

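The transcripts described here encode 7 plasma membrane amino acid transporters (SLC7A5, SLC3A2, SLC1A5, SLC38A1, SLC38A2, SLC7A1 and SLC1A4), the mitochondrial glutaminase GLS2 and the glutamine synthetase GLUL. They were chosen by symbol: each row of the gene count matrix whose Ensembl identifier, without its version, corresponds to a listed symbol was taken. This gave 9 rows of 60668, and all 9 passed the filter on low counts that left 22158 genes for testing.

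RNA was measured in 24 poly(A)-selected, strand-specific libraries from 3D Matrigel cultures of MCF-10A, an immortalised non-tumorigenic human mammary epithelial line. The parental line and its MYC-ER derivative, which carries MYC fused to the oestrogen receptor so that 4-hydroxytamoxifen switches the protein on, were each exposed to 1 µM 4-hydroxytamoxifen (4-OHT) for 0, 8, 24 or 48 h before a common collection on day 5, with 3 replicates in each of the 8 groups. The 0 h cultures of both lines had no 4-OHT, and parental cells carry no fusion gene, so their time course was measured with 4-OHT and without the fusion. The labels give neither the promoter of the fusion gene, nor whether each line is 1 clone, nor whether replicates were separate cultures, so p-values measure the spread between these samples, which may be technical. Library totals ran from 136860029 to 182438505 counts.

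Replicate pairs differed by more than counting noise, with a chi-square per degree of freedom of 173 to 285 among the parental 0 h libraries and 8.93 to 68.8 in the other groups, and each library was counted separately. All 8 epithelial markers were detected in every library, from KRT5 at 6763 to 14121 CPM (counts relative to the library total, scaled between libraries by the TMM method) down to EPCAM at 1.73 to 77.8 CPM. Their summed level in MYC-ER cells was 13770 to 14240 CPM before 4-OHT and 13332 to 14983, 9686 to 10057 and 9520 to 10231 CPM after 8, 24 and 48 h. In parental cells it was 21804 to 28083 CPM before 4-OHT and 16567 to 22727 CPM after it. Its part in the differences between groups was not tested. Among 8 stromal, endothelial and immune markers, PTPRC, COL1A2, DES and VWF had at most 2, 9, 14 and 20 counts in any library, while PDGFRB ran from 0.46 to 1.65 CPM, PECAM1 up to 2.32 CPM and CD68 from 4.2 to 23.6 CPM. The summed level of these 8 markers was 229 to 237 CPM in MYC-ER cells at 0 h and 67.7 to 120.1 CPM in the other groups, mostly from COL1A1, at 53.6 to 220.4 CPM. Mitochondrial transcripts took 9.24 to 9.71% of counts in MYC-ER cells at 0 h and 5.61 to 6.78% in the later MYC-ER groups. Among parental libraries at 0 h, it was 3.86% in replicate 1 and 7.03 and 7.28% in the other replicates. The MYC row, which cannot tell the fusion from the native gene here, changed in MYC-ER cells by 1.04 on the log2 scale after 8 h of 4-OHT, by -0.27 after 24 h and by -0.64 after 48 h, and by -0.20, -0.07 and -0.02 in parental cells.

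Cells take up amino acids through carriers of several families that divide the work. SLC7A5 (LAT1) is the catalytic chain of an exchanger that brings in leucine and other large neutral amino acids against intracellular glutamine, and SLC3A2 (CD98 heavy chain) is the glycoprotein partner that carries it to the membrane. SLC1A5 (ASCT2) and SLC1A4 (ASCT1) are sodium-dependent exchangers of small neutral amino acids; the first accepts glutamine, the second favours alanine, serine and cysteine. SLC38A1 and SLC38A2 (SNAT1 and SNAT2) accumulate glutamine and other neutral amino acids with sodium, and SLC7A1 (CAT1) takes up arginine and lysine. Inside the cell, GLS2 hydrolyses glutamine to glutamate and GLUL makes glutamine from glutamate and ammonia. MYC is known to raise glutamine uptake and glutaminolysis in many cell types, and the stress factor ATF4 induces many of the same transporters when amino acids run short.

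The stretch before the start of SLC7A5 is shown because it is the 1 of these genes whose promoter held the canonical E-box CACGTG, the sequence bound by MYC with MAX, outside annotated exons. Sequences are from RefSeq on GRCh38.p14, whose table gave 16 promoter windows for the 9 genes, each of 250 bases before and 50 after a transcript start. The 250 bases before the SLC7A5 start (chr16:87869508-87869757, minus strand) are 79.6% G and C, with the E-box in capitals at 130 to 125 bases before the start.
SLC7A5: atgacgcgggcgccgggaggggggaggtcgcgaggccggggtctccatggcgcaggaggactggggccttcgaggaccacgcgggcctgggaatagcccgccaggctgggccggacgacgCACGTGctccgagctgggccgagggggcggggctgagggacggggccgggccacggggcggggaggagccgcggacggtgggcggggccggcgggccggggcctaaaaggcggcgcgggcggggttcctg

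The E-box was found in 2 of the 16 windows, those of SLC7A5 and of 1 SLC1A5 start, and in 7.26% of all 35116 promoter windows. The core of the amino acid response element that ATF4 binds, TGATGNAA on either strand, was found in 5 of the 16 windows, of 5 genes, and in 3.62% of all windows. The matches are shown with up to 12 bases on each side and the matched letters in capitals, so that the E-box of SLC1A5 and the response element cores of the transporters can be compared. In SLC3A2 and SLC1A4 the match was on the opposite strand.
SLC1A5 E-box, chr19:46787326-46787355, minus strand: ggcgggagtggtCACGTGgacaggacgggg
SLC1A5 response element core, chr19:46784893-46784922, minus strand: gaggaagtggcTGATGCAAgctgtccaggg
SLC38A1 response element core, chr12:46266502-46266531, minus strand: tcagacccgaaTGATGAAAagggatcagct
SLC7A1 response element core, chr13:29595663-29595692, minus strand: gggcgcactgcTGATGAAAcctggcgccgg
SLC3A2 response element core, chr11:62881725-62881748, plus strand: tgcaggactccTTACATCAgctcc
SLC1A4 response element core, chr2:64989381-64989410, plus strand: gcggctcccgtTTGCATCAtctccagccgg

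These matches describe letters in the windows and no factor's binding was measured. The windows of SLC38A2, GLS2 and GLUL held neither sequence. The 3 core matches of SLC38A1, SLC7A1 and SLC1A4 lay across or just after a transcript start. That of SLC1A5 began 97 bases before a start and that of SLC3A2 38 bases after one. In the SLC1A5 and SLC3A2 windows with a match, the bases before the start overlap annotated exons of the same gene.

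By RefSeq annotation on GRCh38.p14, GLUL lies at chr1:182378098-182391790, SLC1A4 at chr2:64988479-65023865, SLC3A2 at chr11:62856109-62888860 and SLC7A1 at chr13:29509414-29595688. SLC38A1 (chr12:46183063-46269043) and SLC38A2 (chr12:46358188-46372773) are neighbours on chromosome 12, which also holds GLS2 (chr12:56470952-56488161). SLC7A5 lies at chr16:87830023-87869507 and SLC1A5 at chr19:46774883-46788594.

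Levels of different genes were compared roughly, per kilobase of annotated exon merged over all transcripts of a gene. That length can exceed the length of the transcripts present. By this measure GLUL and SLC7A5 led in MYC-ER cells at 0 h, with group means of 529 and 389.7 CPM per kb. SLC38A2 followed at 96.5, SLC3A2 at 92.3, SLC1A5 at 56.5, SLC38A1 at 42.8 and SLC7A1 at 19.4 CPM per kb. GLS2 and SLC1A4 were the least abundant, at 0.288 and 0.272 CPM per kb. In parental cells at 0 h the leading gene was SLC7A5 at 261 CPM per kb, and GLUL stood at 66.1 CPM per kb. Across the 8 groups the highest group mean was 37.5 times the lowest for GLS2, 10.4 times for GLUL and 8.84 times for SLC1A4, and between 1.51 and 1.91 times for the other 6 genes.

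**Figure D1:**
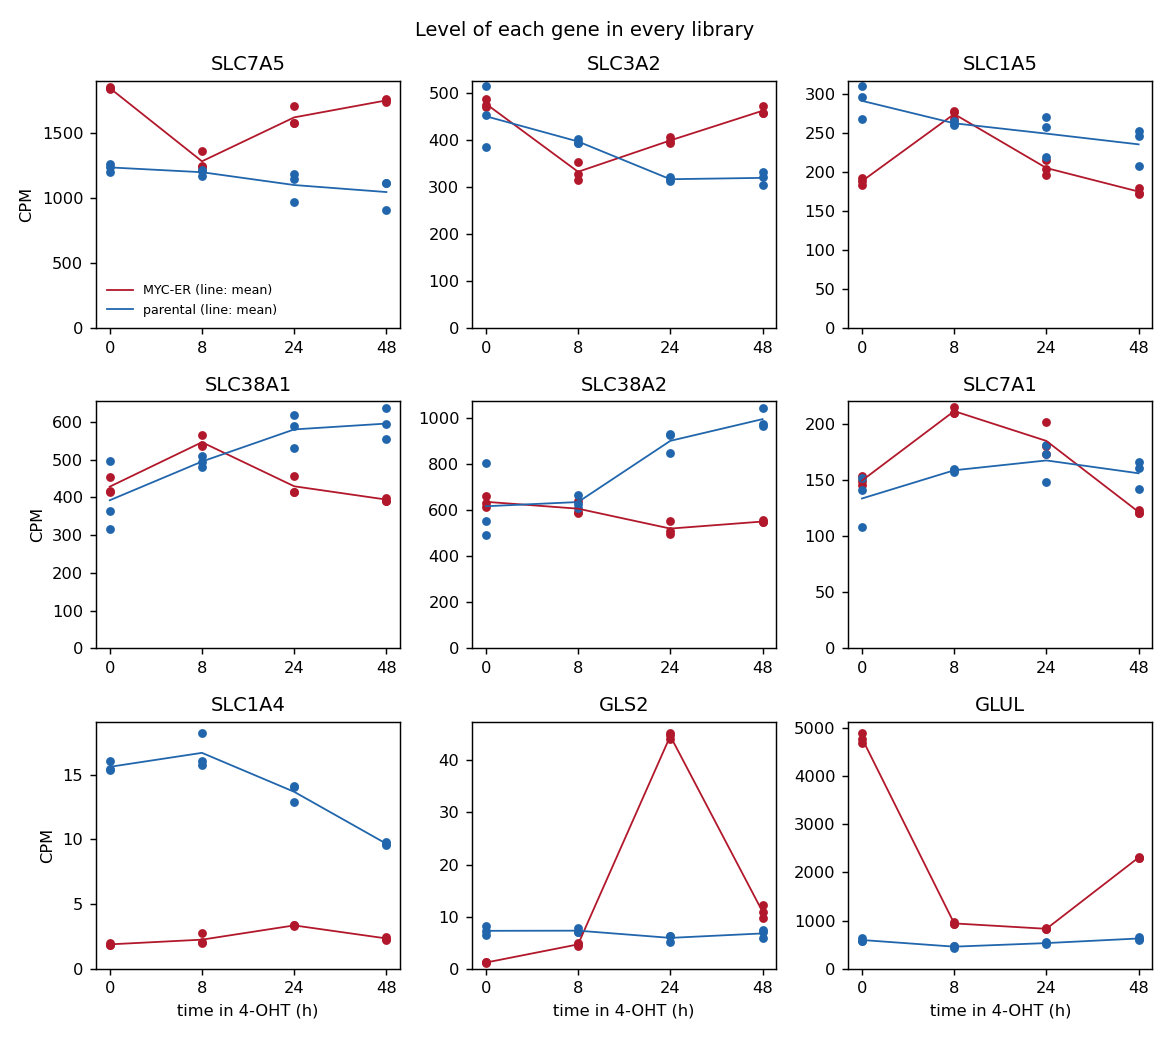
Level in CPM (y axis, from 0) of each of the 9 genes in every library by hours in 4-OHT (x axis), with MYC-ER in red and parental in blue; points are libraries and lines join the means of 3. The highest group mean is 37.5 times the lowest for GLS2 and 10.4 times for GLUL, and SLC7A5 and SLC3A2 in MYC-ER cells are lowest at 8 h.

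GLUL, which makes glutamine, was the most abundant of the 9 transcripts per kilobase in untreated MYC-ER cells and had fallen after 8 h of 4-OHT. Its level in MYC-ER cells was 4684, 4897 and 4759 CPM at 0 h and 924, 934 and 965 CPM at 8 h in replicates 1, 2 and 3. The groups did not overlap, and the level was 5.08-fold lower, a log2 change of -2.34 ± 0.06 (adjusted p = 4.99e-19) by edgeR's quasi-likelihood test with Benjamini-Hochberg adjustment, as for all adjusted p-values below, with log2 changes given ± SE. In bulk RNA, fewer cells of a type and less RNA per cell cannot be told apart.

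At 24 h the MYC-ER libraries held 825, 819 and 843 CPM, 5.77-fold below 0 h (log2 -2.53 ± 0.06, adjusted p = 1.07e-19). By 48 h GLUL had risen again to 2321, 2299 and 2299.7 CPM, 2.78-fold above 24 h (log2 1.48 ± 0.05, adjusted p = 2.58e-15) and still 2.07-fold below 0 h (log2 -1.05 ± 0.05, adjusted p = 6.82e-13). The 48 h libraries lay between those of 0 h and those of 8 and 24 h, with no overlap. From 8 to 24 h the log2 change was -0.18 ± 0.05 (adjusted p = 0.00622), which was 0.02 (adjusted p = 0.721) when libraries were scaled by their totals alone.

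Parental cells held far less GLUL, 576, 635 and 579.9 CPM at 0 h. At 8 h it was 441 to 472 CPM, a log2 change of -0.38 ± 0.05 (adjusted p = 3.02e-05). The later ranges were 505 to 561 CPM at 24 h and 595 to 668 CPM at 48 h. At 48 h parental libraries overlapped those at 0 h, with a log2 difference of 0.07 ± 0.05 (adjusted p = 0.299). The 24 h difference of -0.16 (adjusted p = 0.017) did not pass without parental 24 h replicate 2 (-0.13, adjusted p = 0.094) or without parental 0 h replicate 2 (-0.12, adjusted p = 0.0862). Nor did this difference pass in a fit of only the groups compared (adjusted p = 0.218). MYC-ER cells held 8.01-fold the parental level at 0 h (log2 3.00 ± 0.06, adjusted p = 1.03e-20), and 2.05-fold, 1.56-fold and 3.67-fold it after 8, 24 and 48 h; no MYC-ER library overlapped a parental one at any time. MYC-ER cells at 0 h were also the group with the highest mitochondrial share and stromal marker sum given above, whose part in the differences between the lines at 0 h was not tested. Counts of 4 GLUL pseudogenes reached at most 0.22 CPM in any library.

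GLS2, the glutaminase associated with liver and with p53, was low in untreated MYC-ER cells and was the one of the 9 that rose most. MYC-ER libraries held 1.06, 1.24 and 1.28 CPM at 0 h and 4.96, 4.31 and 4.78 CPM at 8 h. After 24 h they held 45.2, 44.8 and 44 CPM. No group overlapped another. The 24 h level was 37.4-fold the 0 h level, a log2 change of 5.23 ± 0.13 (adjusted p = 9.07e-19), and the 8 h change was 1.97 ± 0.12 (adjusted p = 2.82e-12).

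At 48 h GLS2 had fallen to 12.3, 10.8 and 9.72 CPM, 4.08-fold below 24 h (log2 -2.03 ± 0.11, adjusted p = 1.6e-12) but 9.18-fold above 0 h (log2 3.20 ± 0.12, adjusted p = 4.52e-15). Parental libraries held 6.55 to 8.14 CPM at 0 h, 6.98 to 7.84 CPM after 8 h, 5.06 to 6.38 CPM after 24 h and 5.86 to 7.5 CPM after 48 h, with log2 differences from 0 h of 0.01, -0.30 and -0.10. Of these the 24 h value passed the threshold (adjusted p = 0.0356), but not without parental 0 h replicate 3 (-0.19, adjusted p = 0.227) or parental 24 h replicate 2 (-0.19, adjusted p = 0.2). Nor did this value pass in a fit of only the groups compared (adjusted p = 0.147). At 0 h GLS2 in MYC-ER cells was 6.1-fold below the parental level (log2 -2.61 ± 0.12, adjusted p = 3.71e-14), and at 24 h it was 7.53-fold higher (log2 2.91 ± 0.12, adjusted p = 1.17e-14).

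SPRYD4, on the opposite strand, overlaps 77.1% of the exonic bases of GLS2 in GENCODE 29, and the sources do not say whether counting used strand. In MYC-ER cells SPRYD4 was at 21.5 to 23.4 CPM before 4-OHT and at 18.0 to 18.4, 33.1 to 33.9 and 28.2 to 30.1 CPM after 8, 24 and 48 h. Without strand, reads from the overlap cannot be told apart. The SPRYD4 mean at 24 h was 33.5 CPM against 22.3 CPM at 0 h, a smaller ratio than that of GLS2.

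SLC7A5 and SLC3A2, the chains of the leucine exchanger, both fell at 8 h in MYC-ER cells and then rose. SLC7A5 was 1842, 1856 and 1849 CPM at 0 h and 1242, 1248 and 1363 CPM at 8 h, 1.44-fold lower with no overlap (log2 -0.53 ± 0.07, adjusted p = 1.89e-06). SLC3A2 was 476, 470.4 and 487 CPM at 0 h and 329, 315 and 355 CPM at 8 h, 1.44-fold lower (log2 -0.52 ± 0.07, adjusted p = 8.38e-07). For both chains the 8 h libraries lay below every 0 h library.

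SLC7A5 then rose to 1711, 1579 and 1578 CPM at 24 h (log2 against 8 h 0.34 ± 0.07, adjusted p = 0.000532) and stood at 1765, 1740.3 and 1756 CPM at 48 h. SLC3A2 rose to 406, 394 and 399 CPM at 24 h (log2 against 8 h 0.26 ± 0.07, adjusted p = 0.00271) and to 472, 458 and 459 CPM at 48 h (log2 against 24 h 0.21 ± 0.07, adjusted p = 0.0134). At 48 h neither passed the threshold against 0 h, with log2 differences of -0.08 (adjusted p = 0.442) and -0.05 (adjusted p = 0.638). The 48 h SLC7A5 libraries lay below every 0 h library, and their difference of -0.07 passed (adjusted p = 0.0479) when only both these groups were fitted. The SLC7A5 difference at 24 h, -0.19 (adjusted p = 0.0325), was lost in 5 other settings and on leaving out any 1 of 5 libraries (adjusted p = 0.0517 to 0.421). For SLC3A2 the log2 change at 24 h was -0.26 ± 0.07 (adjusted p = 0.00277).

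The ratio of SLC7A5 to SLC3A2 CPM within a library, which compares groups and not the abundance of the genes, was 3.79 to 3.94 in MYC-ER cells before 4-OHT and 3.78 to 3.96, 3.96 to 4.21 and 3.74 to 3.83 after 8, 24 and 48 h. In parental cells the ratio was 2.41 to 3.13 before 4-OHT and 2.97 to 3.09, 3.11 to 3.74 and 2.98 to 3.46 after it, so that the highest parental library met the lowest MYC-ER library. SLC7A5 was 1263, 1205 and 1244 CPM in parental cells at 0 h, 1.49-fold below MYC-ER cells (log2 MYC-ER minus parental 0.58 ± 0.07, adjusted p = 5.5e-07), whereas SLC3A2 at 453, 385 and 516 CPM overlapped MYC-ER cells (log2 0.08 ± 0.07, adjusted p = 0.307). At 8 h the lines did not differ past the threshold for SLC7A5 (95% interval of the log2 difference -0.06 to 0.25). Their libraries did not overlap, at 1242 to 1363 CPM in MYC-ER and 1170 to 1220 CPM in parental cells. Counts of the pseudogenes SLC7A5P1 and SLC7A5P2 reached at most 1.06 and 0.59 CPM.

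**Figure D2:**
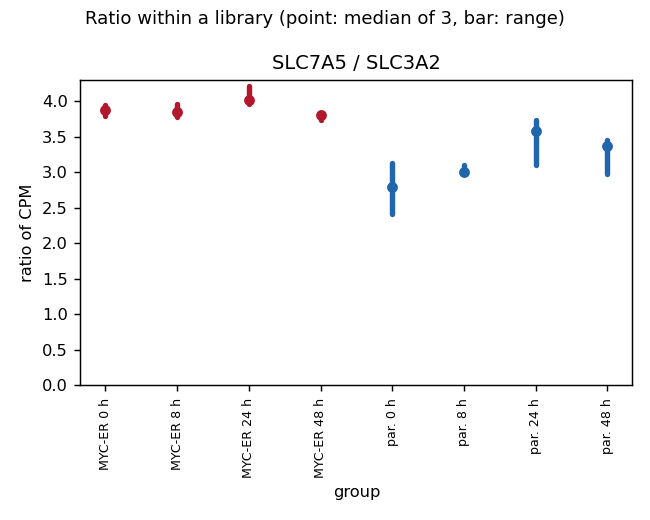
Ratio of SLC7A5 to SLC3A2 CPM within a library (y axis, linear from 0) by group (x axis, MYC-ER red, parental blue); points are medians of 3 libraries and bars run from the lowest to the highest. The ratio lies between 3.74 and 4.21 in MYC-ER cells and between 2.41 and 3.74 in parental cells.

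In parental cells SLC3A2 declined to 321, 313 and 316 CPM at 24 h, a log2 change of -0.51 ± 0.07 (adjusted p = 1.03e-05), and 305, 322 and 333 CPM at 48 h, -0.50 ± 0.07 (adjusted p = 2.16e-05). SLC7A5 was 1148, 972 and 1184 CPM at 24 h, -0.17 (adjusted p = 0.0746), and 908, 1114 and 1119 CPM at 48 h, -0.24 (adjusted p = 0.0124). The 48 h SLC7A5 call was lost without parental 48 h replicate 1 (-0.15, adjusted p = 0.0967) or parental 0 h replicate 3 (-0.21, adjusted p = 0.0528). A fit of only the groups compared lost it too (adjusted p = 0.177).

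SLC1A5, which exchanges glutamine, moved opposite to the leucine exchanger in MYC-ER cells: it rose at 8 h and then declined. It was 189, 184 and 192 CPM at 0 h and 278, 268 and 277 CPM at 8 h, 1.46-fold higher with no overlap (log2 0.54 ± 0.07, adjusted p = 8.01e-07). At 24 h it was 215, 204 and 196 CPM, 1.34-fold below 8 h (log2 -0.42 ± 0.07, adjusted p = 3.67e-05), and at 48 h 179, 174 and 172 CPM, -0.23 (adjusted p = 0.0101) against 24 h. Without MYC-ER 24 h replicate 1 the last difference was -0.20 (adjusted p = 0.0521). Against 0 h the 24 and 48 h groups did not pass, with log2 differences of 0.12 (adjusted p = 0.144) and -0.11 (adjusted p = 0.253). The 24 h rise did pass with library size alone (0.24, adjusted p = 0.00193), in a fit of only the groups compared (0.17, adjusted p = 0.00254) and once each library's trend on transcript GC content was removed (0.23, adjusted p = 0.000835).

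Parental cells at 0 h held more SLC1A5, 309.8, 268 and 296 CPM, 1.55-fold the MYC-ER level (log2 MYC-ER minus parental -0.63 ± 0.07, adjusted p = 1.08e-07). At 8 h the lines were close but did not overlap, 268 to 278 CPM in MYC-ER and 259.8 to 266 CPM in parental cells, and the log2 difference of 0.06 ± 0.07 (adjusted p = 0.497) did not pass. Parental cells drifted down to 258, 219 and 271 CPM at 24 h, -0.22 (adjusted p = 0.0148), and 208, 246 and 252 CPM at 48 h, -0.31 (adjusted p = 0.00166). The 24 h call was lost without parental 24 h replicate 2 (-0.14, adjusted p = 0.12), without parental 0 h replicate 1 (-0.18, adjusted p = 0.0841) or without parental 0 h replicate 3 (-0.19, adjusted p = 0.0527). Fits of only the groups compared lost both the 24 h (adjusted p = 0.156) and the 48 h call (adjusted p = 0.0866). The non-coding gene AC008622.2, on the opposite strand, overlaps 23.4% of the exonic bases of SLC1A5 in GENCODE 29, so reads there cannot be told apart if strand was not used.

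SLC1A4, the relative of SLC1A5 that favours serine and alanine, had the widest difference between the lines among the 7 transporters. At 0 h it was 1.87, 1.83 and 1.96 CPM in MYC-ER cells and 16, 15.4 and 15.4 CPM in parental cells, 8.26-fold lower in MYC-ER (log2 -3.05 ± 0.10, adjusted p = 1.13e-16). MYC-ER libraries stayed below every parental library at all 4 times, with log2 differences of -2.89, -2.03 and -2.04 after 8, 24 and 48 h. Within MYC-ER cells it rose to 3.4, 3.28 and 3.38 CPM at 24 h (log2 0.83 ± 0.10, adjusted p = 1.62e-07) and was 2.33, 2.24 and 2.46 CPM at 48 h (log2 0.31 ± 0.10, adjusted p = 0.0127). The 48 h call was lost without MYC-ER 48 h replicate 3 (0.27, adjusted p = 0.0584).

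At 8 h the MYC-ER libraries held 2.03, 1.96 and 2.76 CPM, and the log2 change of 0.26 (adjusted p = 0.027) rested on replicate 3: without it the change was 0.08 (adjusted p = 0.393). With all 3 replicates the groups met at 1.96 CPM. It was also lost without MYC-ER 0 h replicate 1 (0.25, adjusted p = 0.064) or replicate 2 (adjusted p = 0.0777), with library size alone (0.16, adjusted p = 0.148) or once each library's trend on transcript GC content was removed (0.21, adjusted p = 0.0519). In parental cells SLC1A4 was 18.3, 15.8 and 16 CPM at 8 h and 14.1, 12.9 and 14 CPM at 24 h, neither past the threshold. At 48 h it had fallen to 9.77, 9.64 and 9.57 CPM, 1.62-fold below 0 h (log2 -0.69 ± 0.09, adjusted p = 1.47e-05), below every earlier parental library.

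SLC38A1 and SLC38A2, the sodium-coupled glutamine accumulators, differed between the lines in their changes at 24 and 48 h. In MYC-ER cells SLC38A1 was 414, 453 and 418 CPM at 0 h and rose to 539, 564 and 535 CPM at 8 h (log2 0.35 ± 0.10, adjusted p = 0.00565), with no overlap. At 24 h it was 458, 415 and 415 CPM (log2 against 8 h -0.35 ± 0.10, adjusted p = 0.00776, but -0.14, adjusted p = 0.293, with library size alone), and it was 391, 392 and 399 CPM at 48 h. The 24 h value differed from 0 h by 0.00 and overlapped it.

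SLC38A2 in MYC-ER cells was 633, 662 and 616 CPM at 0 h and 588, 641 and 592 CPM at 8 h, overlapping, with a log2 difference of -0.07 ± 0.11 (adjusted p = 0.594). At 24 h it was 553, 498 and 511 CPM, a log2 change of -0.29 (adjusted p = 0.0276), which was lost without MYC-ER 0 h replicate 1 (-0.30, adjusted p = 0.0522) or 2 (-0.26, adjusted p = 0.0837) and without MYC-ER 24 h replicate 2 (-0.26, adjusted p = 0.09) or 3 (-0.28, adjusted p = 0.0709). With library size alone the 24 h call was also lost (-0.18, adjusted p = 0.22), but the value was -0.35 (adjusted p = 1.7e-05) once the GC trend was removed. At 48 h it was 548, 557 and 548 CPM, -0.21 (adjusted p = 0.138), which passed in a fit of only the groups compared (-0.20, adjusted p = 0.000238) and after removal of the GC trend (-0.15, adjusted p = 0.0377).

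In parental cells both rose over time. SLC38A1 was 365, 497 and 315 CPM at 0 h and 494, 511 and 479 CPM at 8 h. It reached 589, 532 and 619 CPM at 24 h and 555, 593 and 638 CPM at 48 h, the last a log2 change of 0.60 ± 0.11 (adjusted p = 0.000129). SLC38A2 was 554, 808 and 491 CPM at 0 h and 629, 668 and 611 CPM at 8 h. It reached 929.6, 847 and 929 CPM at 24 h, a log2 change of 0.55 that was lost in a fit of only the groups compared (adjusted p = 0.0507), and 977, 967 and 1046 CPM at 48 h, a log2 change of 0.69 ± 0.11 (adjusted p = 6.46e-05). Replicate 2 was the high library at 0 h for both genes: it lay within the 8 h range for SLC38A1 and above it for SLC38A2, and every 24 and 48 h library lay above every 0 h library.

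Leaving out parental 0 h replicate 2 changed several calls on these genes. SLC38A2 at 8 h moved from 0.04 to 0.28 (adjusted p = 0.00127), and the difference between the lines at 0 h became 0.33 for SLC38A1 (adjusted p = 0.00043) and 0.28 for SLC38A2 (adjusted p = 0.000615). The 8 h change of SLC38A1, 0.34 (adjusted p = 0.0191), was lost without parental 0 h replicate 1 (0.29, adjusted p = 0.0929), parental 0 h replicate 3 (0.21, adjusted p = 0.114) or parental 8 h replicate 2 (0.31, adjusted p = 0.0637). A fit of only the groups compared also lost this call (adjusted p = 0.186).

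SLC7A1, the arginine and lysine carrier, rose at 8 h in MYC-ER cells and ended below its starting level. It was 149.6, 153 and 146 CPM at 0 h and 209.9, 209.7 and 215 CPM at 8 h, a log2 change of 0.50 ± 0.09 (adjusted p = 6.2e-05). It was 201, 179.9 and 173 CPM at 24 h, still above 0 h by 0.31 ± 0.09 (adjusted p = 0.0067). The 48 h libraries, at 124, 120.4 and 121 CPM, lay below every earlier one, a log2 change from 0 h of -0.30 ± 0.09 (adjusted p = 0.0118). The 48 h fall was -0.14 (adjusted p = 0.274) when libraries were scaled by their totals alone.

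Parental libraries held 141, 152 and 108 CPM at 0 h and 160.3, 157 and 159 CPM at 8 h. They held 173, 148 and 181 CPM at 24 h and 142, 160.4 and 166 CPM at 48 h. The 24 h group overlapped the 0 h group and differed from it by 0.33 ± 0.09 (adjusted p = 0.00659), a call lost in a fit of only the groups compared (adjusted p = 0.114). The 8 h difference of 0.25 (adjusted p = 0.0458) was lost on leaving out any 1 of 5 libraries, with values of 0.13 to 0.29 (adjusted p = 0.055 to 0.232); without parental 0 h replicate 2, the library kept in all of these, it stayed past the threshold. SLC3A2 at 8 h, -0.18 (adjusted p = 0.0495), was likewise lost without parental 0 h replicate 1 or 3 or any 8 h library (adjusted p = 0.1 to 0.462), the value nearest 0 being -0.06 without parental 0 h replicate 3.

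Counted over the 9 genes, 5 rose and 3 fell in MYC-ER cells at 8 h, where 32.2% of all genes tested rose and 35.4% fell; the median log2 change was 0.26 over the 9 and -0.10 over all genes. At 24 h 3 rose and 4 fell (all genes 30.4% and 31.2%), with medians of 0.00 and -0.02. At 48 h 2 rose and 2 fell (all genes 23.4% and 20.7%), with medians of -0.11 and 0.03. The called changes of at least 2-fold were those of GLS2 and GLUL at each of these times, and 34.7%, 27.5% and 13.4% of all genes met that rule. The 3 libraries did not overlap those of 0 h for 7, 8 and 8 of the 9 genes, beside 73.5%, 70.7% and 62.3% of all genes.

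Between 8 and 24 h in MYC-ER cells 4 rose and 3 fell (all genes 28.4% and 27.1%), and between 24 and 48 h 2 rose and 4 fell (all genes 28.2% and 25.5%). In parental cells 2 rose and 2 fell at 8 h, where 15% of all genes rose and 16% fell, 31% in either direction. At 24 h 3 rose and 4 fell (all genes 21.2% and 21.7%, together 42.9%), and at 48 h 2 rose and 4 fell (all genes 20.4% and 20.1%, together 40.5%). The groups did not overlap for 3, 7 and 6 of the 9 genes, beside 33.9%, 43.1% and 39% of all genes. No parental change of the 9 reached 2-fold, which 2.18%, 3.98% and 2.62% of all genes did past the threshold. Leaving out each library in turn, the parental count was 1 to 6 at 8 h, lowest without parental 0 h replicate 1 or 3 or parental 8 h replicate 2 and highest without parental 0 h replicate 2; at 24 h it was 4 to 8, lowest without parental 24 h replicate 2.

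**Figure D3:**
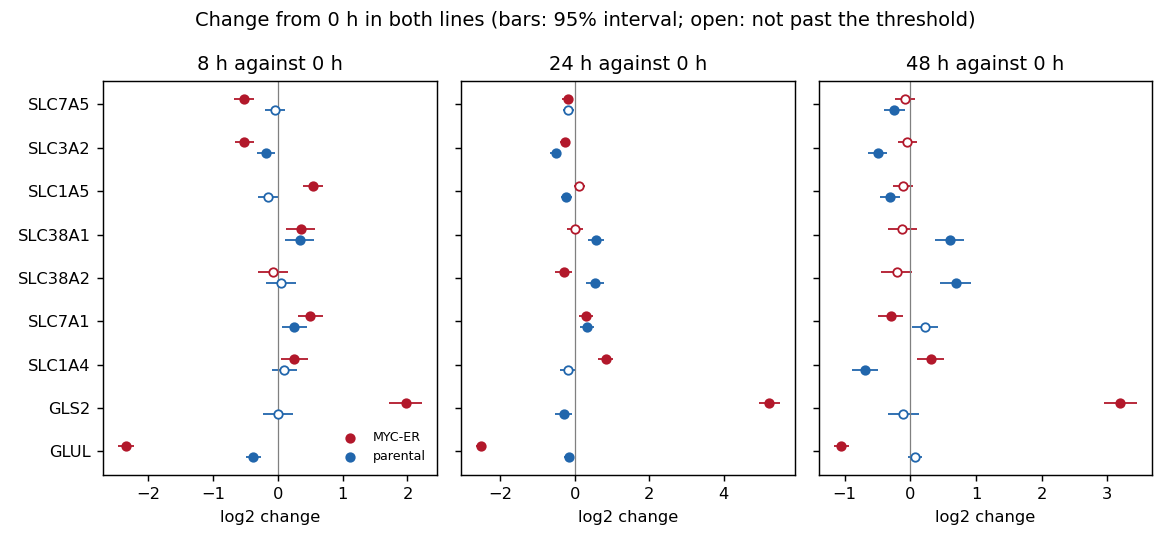
Log2 change from 0 h (x axis) of each of the 9 genes (y axis) at 8, 24 and 48 h, with MYC-ER in red and parental in blue; bars are 95% intervals and open symbols did not pass the threshold. GLS2 and GLUL in MYC-ER cells lie far from 0 at every time, and SLC38A1 and SLC38A2 lie right of 0 in parental cells at 24 and 48 h.

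In parental cells the log2 change moved with the GC content of the transcript. Across 9777 genes the Spearman correlation of the change with GC content was -0.62, -0.67 and -0.66 after 8, 24 and 48 h in parental cells and 0.01, -0.07 and 0.02 in MYC-ER cells; genes are not independent replicates and the comparisons share their 0 h libraries. Transcripts of SLC38A2 and SLC38A1 contain 38.8% and 43.3% G and C, the 6.97th and 24.9th percentiles of the genes tested, and both rose in parental cells. SLC7A5, at 60.4%, and SLC1A5, at 58.8%, lie at the 86.9th and 82.5th percentiles. The GC trend also separated the parental 0 h libraries: the correlation of a library's deviation from its group mean with GC content was -0.69 in replicate 2 and 0.58 and 0.54 in the others. Other groups had such libraries too, with -0.54 in MYC-ER 0 h replicate 2, -0.51 and 0.60 in MYC-ER 8 h replicates 2 and 3, and 0.60 in parental 48 h replicate 2. The part of GC content in the changes of single genes was not tested beyond the following fit.

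When each library's trend on GC content was removed, an alternative chosen after seeing the data, SLC38A2 in parental cells at 48 h rose by 0.32 (adjusted p = 0.000247) in place of 0.69, and SLC38A1 by 0.41 (adjusted p = 0.000387). At 24 h SLC38A2 was 0.17 (adjusted p = 0.0216) in place of 0.55, SLC38A1 was 0.36 in place of 0.56 and SLC3A2 was -0.32 in place of -0.51. At 48 h SLC3A2 fell by 0.31 (adjusted p = 6.81e-05) and SLC1A4 by 0.66 (adjusted p = 1.62e-05). SLC7A5 at 48 h was 0.04 (adjusted p = 0.695), SLC1A5 at 48 h -0.06 (adjusted p = 0.49) and SLC1A5 at 24 h 0.04 (adjusted p = 0.611), so these 3 parental falls were lost. SLC38A2 at 8 h became -0.20 (adjusted p = 0.0128), and SLC7A1 passed at 48 h (0.33, adjusted p = 0.00985). SLC3A2 at 8 h (-0.04, adjusted p = 0.594), SLC38A1 at 8 h (0.20, adjusted p = 0.0647) and GLS2 at 24 h (-0.17, adjusted p = 0.229) were also lost.

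**Figure D4:**
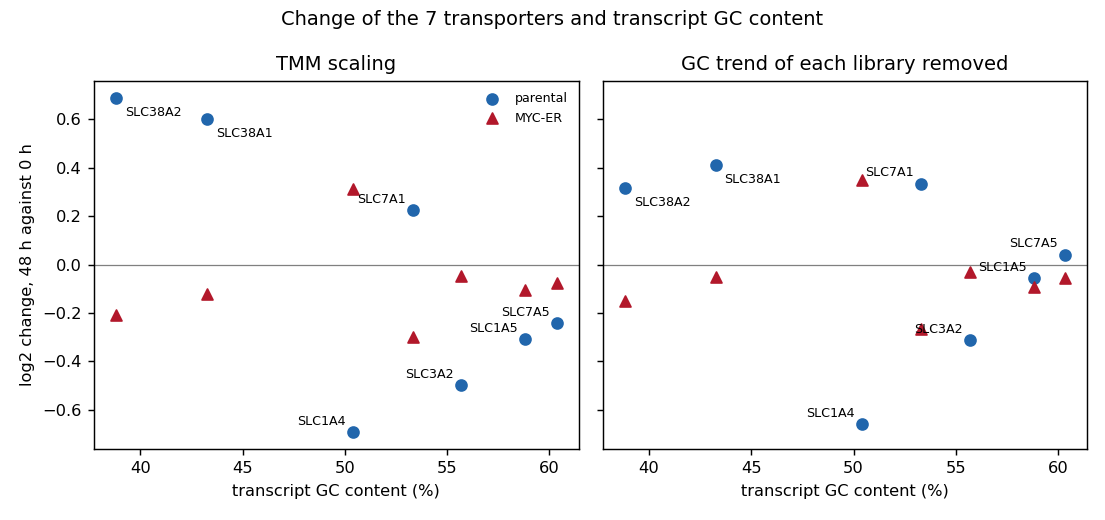
Log2 change at 48 h against 0 h (y axis) of the 7 transporters by the GC content of their transcripts in percent (x axis), in parental (blue circles, named) and MYC-ER cells (red triangles), with TMM scaling on the left and with each library's GC trend removed on the right. The parental value of SLC38A2 goes from 0.69 to 0.32 and that of SLC7A5 from -0.24 to 0.04.

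Between the lines at 0 h, before any 4-OHT, 2 of the 9 genes were higher and 3 lower in MYC-ER cells (all genes 31.6% and 32.7%), namely GLUL and SLC7A5 against SLC1A4, GLS2 and SLC1A5. The other 4 genes differed by 0.16 or less on the log2 scale; without parental 0 h replicate 2 SLC7A1 (0.26, adjusted p = 0.0164) passed with SLC38A1 and SLC38A2, and the count became 8. Without parental 0 h replicate 3, SLC3A2 passed too (0.21, adjusted p = 0.00222). At 8 h 2 were higher and 3 lower (all genes 23.1% and 25.5%), and at 24 h 4 were higher and 4 lower (all genes 23.5% and 25.8%).

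At 48 h all 9 genes differed between the lines, 4 higher and 5 lower in MYC-ER cells, where 27.3% and 29.4% of all genes were. GLUL, SLC7A5, GLS2 and SLC3A2 were higher, by 1.88, 0.74, 0.69 and 0.53 on the log2 scale. SLC1A4, SLC38A2, SLC38A1, SLC1A5 and SLC7A1 were lower, with differences of -2.04, -0.85, -0.60, -0.43 and -0.36. With libraries scaled by their totals alone the SLC7A1 difference was -0.22 (adjusted p = 0.062).

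The difference between the lines' responses (the change in MYC-ER cells less that in parental cells) was tested as a line by time interaction. At 8 h 5 genes differed (all genes 55.2%): SLC1A5 by 0.69 ± 0.10 (adjusted p = 4.95e-06), GLS2 by 1.97 ± 0.16 (adjusted p = 1.03e-09), SLC7A5 by -0.48 ± 0.10 (adjusted p = 0.00047), SLC3A2 by -0.34 ± 0.10 (adjusted p = 0.00565) and GLUL by -1.97 ± 0.08 (adjusted p = 5.48e-15). For SLC38A1 the difference at 8 h did not pass, with an interval of -0.29 to 0.32. For SLC7A1 it did not pass either, with an interval of -0.02 to 0.52; without parental 0 h replicate 3 its difference was 0.38 (adjusted p = 0.00205). For SLC38A2 the difference was -0.11 (adjusted p = 0.58), and -0.35 (adjusted p = 0.00148) without parental 0 h replicate 2. With the GC trend removed the differences at 8 h were -0.75 for SLC7A5 (adjusted p = 6.25e-07), -0.55 for SLC3A2 (adjusted p = 5.89e-07) and 0.45 for SLC1A5 (adjusted p = 3.47e-05).

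At 24 h 7 genes differed (all genes 54.5%), and at 48 h 7 (all genes 45%). For SLC38A2 and SLC38A1 the MYC-ER change at 48 h was below the parental one, with differences of -0.90 ± 0.16 (adjusted p = 8.25e-05) and -0.72 ± 0.15 (adjusted p = 0.000429), and once the GC trend was removed of -0.46 (adjusted p = 7.42e-05) and -0.46 (adjusted p = 0.00182). SLC1A4 rose in MYC-ER cells relative to parental cells by 1.02 ± 0.13 (adjusted p = 1.21e-06) at 24 h and 1.00 ± 0.13 (adjusted p = 3.61e-06) at 48 h, and SLC3A2 by 0.45 ± 0.10 (adjusted p = 0.000746) at 48 h, which was 0.28 (adjusted p = 0.00224) with the GC trend removed. At 24 h removal of the GC trend left differences of 0.19 for SLC1A5 (adjusted p = 0.0411), -0.36 for SLC38A1 and -0.52 for SLC38A2, in place of 0.35, -0.56 and -0.84. The SLC3A2 value at 24 h, 0.25 (adjusted p = 0.0351), was lost on leaving out any 1 of 8 libraries (adjusted p = 0.0556 to 0.137), the value nearest 0 being 0.13 without parental 0 h replicate 3, and 0.13 (adjusted p = 0.128) with the GC trend removed. SLC7A5 did not differ past the threshold at 24 h (-0.02, interval -0.24 to 0.20) or 48 h (0.16, interval -0.05 to 0.38).

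The other genes of the pathway were taken from 2 lists. Of 30 other amino acid transporters 22 passed the filter on low counts, and 11 rose and 6 fell in MYC-ER cells at 8 h (all genes 32.2% and 35.4%). Their median log2 change was 0.21 (0.22 with SLC38A5 at its bound and SLC38A3, at or under the limit of 3 counts in both groups, left out). SLC1A1, a glutamate carrier, rose most among those at 10 CPM or more, from 0.836 ± 0.189 to 14.7 ± 1.23 CPM (SD, n = 3; log2 4.13 ± 0.14, adjusted p = 1.28e-16). SLC6A6, the taurine carrier, rose by 1.83 ± 0.08 (adjusted p = 1.91e-14) and SLC36A1, a proton-coupled carrier, by 1.56 ± 0.09 (adjusted p = 4.74e-13). Among those that fell, SLC7A8, another light chain of SLC3A2, had a change of -2.95 ± 0.08 (adjusted p = 2.04e-18), SLC7A2, an arginine carrier like SLC7A1, had a change of -2.15 ± 0.12 (adjusted p = 6.51e-13), and SLC43A2, a leucine carrier, of -1.01 ± 0.07 (adjusted p = 6.92e-11). SLC38A5 had no counts in MYC-ER cells at 0 h and 0.17 CPM at 8 h, at least 9.56-fold higher taking 3 counts per library as the limit.

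SLC7A8 then turned: at 48 h it was 78.1 ± 1.67 CPM against 29.1 ± 1.25 CPM at 0 h (log2 1.42 ± 0.07, adjusted p = 2.84e-13), and in parental cells at 0 h it was 194 ± 9.52 CPM. Parental SLC7A8 also fell under 4-OHT, with log2 changes of -0.74, -0.84 and -0.53 after 8, 24 and 48 h. SLC7A2 remained below 0 h, with log2 changes of -2.22 (adjusted p = 5.11e-13) after 24 h and -1.67 (adjusted p = 1.52e-10) after 48 h, while in parental cells it rose by 0.95 ± 0.12 (adjusted p = 8e-06) at 48 h. SLC7A11, the cystine carrier that also pairs with SLC3A2, rose in MYC-ER cells to 29 ± 1.98 CPM at 24 h (log2 2.16 ± 0.16, adjusted p = 8.32e-11) from 6.48 ± 0.246 CPM. In parental cells SLC7A11 rose too, by 0.83 (adjusted p = 0.000152) at 24 h and 0.77 (adjusted p = 0.000336) at 48 h. The line by time interaction at 24 h was 1.33 (adjusted p = 1.72e-05). MYC-ER cells held less of it than parental cells, with log2 differences of -2.15, -2.01, -0.82 and -1.70 at 0, 8, 24 and 48 h. Of the 22 in this list 9 rose and 9 fell at 24 h (all genes 30.4% and 31.2%) and 7 rose and 5 fell at 48 h (all genes 23.4% and 20.7%) in MYC-ER cells, with median log2 changes of -0.11 and 0.03. In parental cells 4 rose and 3 fell at 8 h (all genes 15% and 16%). At 24 h and at 48 h 9 rose and 3 fell, beside 21.2% and 21.7% of all genes at 24 h and 20.4% and 20.1% at 48 h.

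Of 31 enzymes and mitochondrial carriers of glutamine and glutamate 30 were tested. In MYC-ER cells 17 rose and 8 fell at 8 h (all genes 32.2% and 35.4%), 18 rose and 7 fell at 24 h (all genes 30.4% and 31.2%), and 12 rose and 7 fell at 48 h (all genes 23.4% and 20.7%). Their median log2 changes were 0.52, 0.59 and 0.04, beside -0.10, -0.02 and 0.03 over all genes. PYCR3, the last enzyme of proline synthesis, rose from 4.64 ± 0.438 to 35 ± 1.46 CPM at 8 h (log2 2.92 ± 0.09, adjusted p = 2.89e-17). CTPS1, which uses glutamine to make CTP, rose by 2.35 ± 0.05 (adjusted p = 9.71e-20) and SLC25A13, the aspartate and glutamate carrier, by 2.30 ± 0.06 (adjusted p = 1.93e-18). PFAS, a glutamine-using step of purine synthesis, had a change of 1.86 (adjusted p = 4.41e-17) at 24 h.

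PRODH, which starts proline breakdown, fell in MYC-ER cells from 139 ± 2.93 to 6.91 ± 0.285 CPM at 8 h (log2 -4.33 ± 0.12, adjusted p = 8.14e-18). At 48 h it was 126 ± 1.55 CPM, a log2 difference from 0 h of -0.14 (adjusted p = 0.314). Parental PRODH fell too, by -1.04 (adjusted p = 1.43e-06) at 8 h and -1.12 (adjusted p = 4.41e-07) at 24 h. The line by time interaction was -3.28 (adjusted p = 2.07e-13) at 8 h and -2.01 (adjusted p = 4.6e-10) at 24 h. Before 4-OHT the lines already differed, with a log2 MYC-ER minus parental value of 3.49 (adjusted p = 1.52e-16). GFPT2, which uses glutamine for hexosamines, had a change of -2.07 ± 0.12 (adjusted p = 1.69e-12) at 8 h and -4.87 ± 0.14 (adjusted p = 9.99e-18) at 24 h. From 24 to 48 h GFPT2 rose by 4.38 (adjusted p = 2.48e-16), which left it at -0.49 (adjusted p = 0.00175) against 0 h. Its log2 MYC-ER minus parental value was 5.28 (adjusted p = 4.44e-18) before 4-OHT and 4.04 (adjusted p = 6.77e-16) at 48 h. GLUD1, glutamate dehydrogenase, had a change of -0.97 ± 0.05 (adjusted p = 3.76e-13) at 24 h. GLUD1 and GLUD2 are near-identical copies and their counts are uncertain. PSAT1, of serine synthesis, had a change of -1.08 ± 0.05 (adjusted p = 4.9e-15) at 8 h. In parental cells 8 of the 30 rose and 8 fell at 8 h (all genes 15% and 16%), 10 rose and 12 fell at 24 h (all genes 21.2% and 21.7%), and 11 rose and 10 fell at 48 h (all genes 20.4% and 20.1%).

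**Figure D5:**
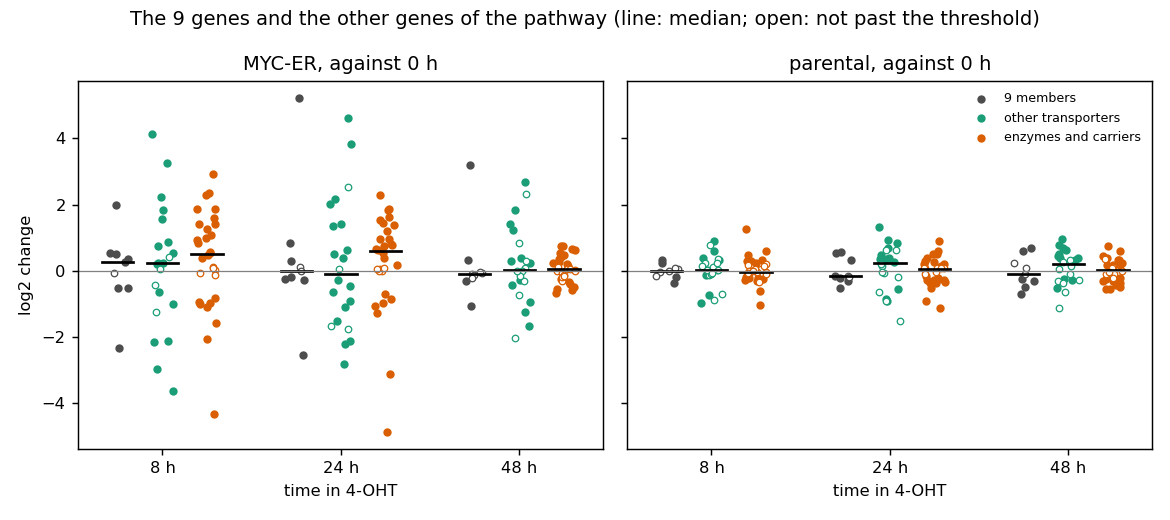
Log2 change from 0 h (y axis) at 8, 24 and 48 h (x axis) in MYC-ER and parental cells for the 9 genes (grey), 22 other amino acid transporters (green) and 30 enzymes and carriers of glutamine and glutamate (orange); each point is a gene, lines are medians, open symbols did not pass the threshold, and SLC38A5 in MYC-ER cells is drawn at its lower bound, with SLC38A3 left out at 8 h. The enzyme medians are 0.52 and 0.59 at 8 and 24 h in MYC-ER cells and close to 0 in parental cells.

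By the profile of 8 group means of log2 CPM, compared over 10767 genes, the gene most like SLC7A1 was VMA21, with a root mean square distance of 0.03, and the one most like SLC1A5 was NUTF2, at 0.05. GLS2 was closest to NUP210, at 0.12, with the next gene, CNTNAP2, at 0.45. TMEM18 was closest to SLC7A5 (0.08), TMEM101 to SLC3A2 (0.07), BNIP2 to SLC38A1 (0.05) and NAV2 to SLC38A2 (0.13). AKR1B10 was closest to SLC1A4 (0.20) and TMSB15C to GLUL (0.21). None of the 9 genes was among the 3 most like another, SLC7A5 and SLC3A2 included, whose profiles lay 0.18 apart.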

How the data were processed

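The authors deposited 1 table of raw counts, whole numbers for each gene in each of 24 RNA-seq libraries. The submitters' processing notes name Trimmomatic 0.39, STAR, StringTie 2.1.3b and GRCh38, without saying which made the counts; if StringTie did, a count is an estimate from coverage and the limit of 3 counts (0.0219 CPM in the smallest library) is approximate. Whether counting used strand, and how reads shared by similar genes were treated, is not given in the sources used here. Reads were 150 bases, paired, from 3 libraries per lane.

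From these counts, genes were kept by edgeR's filterByExpr (22158 of 60668), scaled by TMM and fitted with edgeR 4.0.16 (R 4.3.3), 1 mean per group over 24 libraries. Each contrast was tested with the two-sided quasi-likelihood test, p-values were adjusted over all genes after Benjamini and Hochberg, and the threshold was 0.05. The procedure was tested on simulated data. CPM uses TMM-scaled totals, and log2 profiles a prior count of 2. SE is the log2 change divided by the square root of F. GC content, exon length and overlapping exons come from GENCODE 29.

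The 9 genes, the 2 lists, the 2 marker lists and the tests were chosen with earlier results of these data known. Among the lists, up to 3 genes of the largest rise and up to 3 of the largest fall are named among those past the threshold, at 10 CPM or more in the highest group and without overlap, and 1 gene the rule names is not reported here; SLC38A5 was named after its values were seen. For each of the 9, the 3 genes nearest in profile, at 10 CPM or more, were found, and the nearest is named. Alternatives were DESeq2 1.42.0 (size factors and Wald test), library size alone, no filter, at least 10 counts in every library, only the groups compared, a replicate block, leaving out each library and, chosen after seeing the data, removal of each library's lowess trend on GC content (span 0.3).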

Additional observations from a re-analysis of the deposited data

Results flagged for a closer look

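The responses of the 2 lines to 4-OHT differed for several genes by the test of the difference itself (change in MYC-ER cells less that in parental cells, on the log2 scale, edgeR, 3 libraries in each of 4 groups). At 8 h these were SLC7A5 (-0.48), SLC3A2 (-0.34), SLC1A5 (0.69), GLS2 (1.97) and GLUL (-1.97). At 24 h they were SLC3A2 (0.25), SLC1A5 (0.35), SLC38A1 (-0.56), SLC38A2 (-0.84), SLC1A4 (1.02), GLS2 (5.52) and GLUL (-2.36). At 48 h they were SLC3A2 (0.45), SLC38A1 (-0.72), SLC38A2 (-0.90), SLC7A1 (-0.52), SLC1A4 (1.00), GLS2 (3.30) and GLUL (-1.13). SLC3A2 changed sign with time, its MYC-ER change lying below the parental one at 8 h and above it at 48 h. Once the GC trend of each library was removed, the 24 h differences were 0.13 for SLC3A2, whose call was lost (adjusted p = 0.128), 0.19 for SLC1A5 (adjusted p = 0.0411), -0.36 for SLC38A1 and -0.52 for SLC38A2. The 48 h differences were then 0.28 for SLC3A2 and -0.46 for both SLC38A1 and SLC38A2.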

How the results depend on the processing

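Of 1080 values of the 9 genes over 15 contrasts in 8 other settings, 1014 kept their side of the threshold, 34 lost and 27 gained a call, and in 5 the sign changed with a call in either fit. In 20 of the 1014 the sign changed with no call in either fit. The 5 were GLUL in MYC-ER cells from 8 to 24 h with library size alone (0.0237) and, with the GC trend removed, SLC38A2 between the lines at 0 h (-0.20) and in parental cells at 8 h (-0.20), SLC1A5 in parental cells at 24 h (0.0412) and SLC7A5 at 48 h (0.0418). Of 972 values on leaving out 1 library, 44 lost and 13 gained a call, 0 changed sign with a call in either fit, and 25 did so with none. Library size alone moved the share of higher calls over all genes at MYC-ER 48 h from 53.0 to 73.8%, with a median log2 change of 0.19 in place of 0.03, and from 8 to 24 h from 51.2 to 67.8%, with a median of 0.26 in place of 0.05. It also moved the interaction at 48 h from 52.5 to 63.5% and the difference between the lines at 24 h from 47.6 to 60.7% and at 48 h from 48.2 to 59.8%. Its other shifts of the median of all genes by over 0.1 were at MYC-ER 24 h, to 0.09 from -0.02, between the lines at 24 h, to 0.14 from 0.02, and at 48 h, to 0.16 from 0.02, and in the interaction at 8 h, to -0.20 from -0.08, and at 48 h, to 0.17 from 0.07.

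The number of the 9 genes called became 8 at MYC-ER 48 h with only the groups compared, 8 between the lines at 0 h with the GC trend removed, 2 in parental cells at 24 h and 1 at 8 h with only the groups compared, and 2 at 8 h without a filter; all genes called with only the groups compared were 1452, 4923 and 3274 in parental cells at 8, 24 and 48 h, in place of 6870, 9503 and 8978. These fits use fewer samples and estimate the spread from the groups compared alone. They gave more calls among the 9 at MYC-ER 48 h and fewer in parental cells at 8, 24 and 48 h. At parental 48 h the calls lost were those of SLC7A5 (adjusted p = 0.177) and SLC1A5 (adjusted p = 0.0866). On leaving out each library the counts of the 9 were 1 to 6 in parental cells at 8 h, 4 to 8 at 24 h and 5 to 8 between the lines at 0 h (8 without parental 0 h replicate 2); all genes called in parental cells at 8 h were 4720 to 9166. The cause was not tested. With any E-box, CANNTG, in place of CACGTG, 8 of the 9 genes had a match, in 12 of 16 windows beside 68.7% of all windows.

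Replicate numbers are shared by the groups, and the main tests did not pair the samples. Over 36 same-numbered pairs in 12 contrasts the correlation of deviations ran from -0.38 to 0.42. It was over 0.1 in 10 pairs, and for all 3 pairs in 0 contrasts. In 10 pairs the library correlated best with its own number, among them all 3 between the lines at 0 h (0.03, 0.42 and 0.25). The replicate block gives each number the same effect in all groups, so it cannot show a pairing at 0 h alone. With the replicate block 1 of 135 calls on the 9 genes was lost, SLC7A1 in parental cells at 8 h (0.25, adjusted p = 0.0549).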
